A study of Mus musculus with 10 samples.

Results

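Fibroblasts cocultured with wild-type (WT) group 2 innate lymphoid cells (ILC2s) were compared with fibroblasts cocultured with ILC2s that lack IL-13 (IL13KO). The comparison took 6 of the 10 mouse RNA-seq libraries of a series on a fibroblast progenitor niche of the pancreas marked by Pi16. The 6 libraries were chosen by their labelled culture, 3 with WT ILC2s and 3 with IL13KO ILC2s. The other 4 libraries, of fibroblasts cultured alone, are given as a background level and entered only the alternative fit named below as all 10 libraries in the fit. The fibroblasts of every library carry the genotype label C57B6, so the missing IL-13 is that of the added lymphocytes and not of the fibroblasts. ILC2s for both cocultures were sorted as CD45+ cells that lacked CD3, B220 and lineage markers and carried KLRG1. Fibroblasts were sorted as CD45-, Epcam- and CD31- cells that carried Pdpn and Pdgfra, and were sorted again after coculture. For that second sort the design text gives a CD45+ gate, although CD45 is the antigen of white blood cells. The sex, age and number of the mice, the length of the culture and the knockout allele are not given in the sources used here. No label ties a library to a mouse or a culture, so p-values measure the spread between these libraries, which may be technical. In bulk RNA, fewer cells of a kind and less RNA per cell cannot be told apart.

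IL-13 is a cytokine of type 2 immunity. It binds the chain IL-13Rα1, which pairs with IL-4Rα, and the receptor's Janus kinases activate the transcription factor STAT6. IL-13Rα2 binds the same cytokine with high affinity and is known chiefly as a decoy. In fibroblasts IL-13 is known as an inducer of eotaxin and as a cytokine of tissue fibrosis. ILC2s are tissue lymphocytes without antigen receptors that release IL-13, IL-5 and other cytokines when IL-33 from stromal cells engages their receptor ST2. IL-4 uses the same IL-4Rα and IL-13Rα1 chains, whereas IL-5, IL-3 and GM-CSF signal through the common beta chain encoded by Csf2rb.

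Reads of the cytokine that separates the groups matched the labels. Il13 (chromosome 11, 53631324 to 53634702 on GRCm38) had 30, 120 and 121 reads in WT cocultures 1, 3 and 4, as the count table numbers them, and 0, 0 and 0 reads in IL13KO cocultures 1, 2 and 3. Values below follow that order of libraries, with the 3 WT libraries before the 3 IL13KO libraries. With 3 reads over the IL13KO group as the floor that a count of 0 allows, Il13 was at least 79.3-fold higher with WT ILC2s. WT coculture 1 held the fewest Il13 reads of its group. Reads of Il5, Il9 and Csf2, other cytokine genes of ILC2s, were fewer with IL13KO ILC2s as well, whereas those of Il4 were not. Il5, the eosinophil growth factor, had 80, 265 and 371 reads with WT and 30, 64 and 12 with IL13KO ILC2s. Once reads were scaled by library total, the groups overlapped. The log2 fold change of WT over IL13KO for Il5 was 2.62 ± 0.60 (adjusted p = 0.00576), or 3.36 without IL13KO coculture 2. Il9 had 3, 12 and 23 reads against 0 in each IL13KO library, at least 11.1-fold higher, and Csf2, the gene of GM-CSF, had 1, 4 and 20 against 0, at least 7.32-fold higher. Ptprc, which encodes CD45, had 6, 3 and 9 reads against 0, 1 and 0 (ratio 15.8, exact 95% counting interval 2.495 to 658). Il4, whose product shares the IL-13 receptor, had 2, 1 and 3 reads against 6, 3 and 4, and 3 to 11 in fibroblasts alone. Klrg1 had 0, 6 and 10 reads against 4, 1 and 0, and Il2ra 15, 45 and 42 against 9, 74 and 4 (called without IL13KO coculture 2, log2 fold change 2.21). Intervals and floors cover counting error only. The IL13KO cocultures thus differed from the WT cocultures in Il13 and also in other transcripts of ILC2s or leukocytes, and the part of these in the results below was not tested.

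The 6 libraries held 17277432 to 22087459 counts each, with the 3 WT libraries above the 3 IL13KO libraries. A floor of 3 reads corresponded to 0.135 to 0.172 TMM-scaled CPM (counts divided by the scaled library total). Mitochondrial transcripts took 0.303 to 0.555% of counts with WT ILC2s and 0.444 to 0.503% with IL13KO ILC2s, and transcripts of ribosomal proteins 2.12 to 2.67% and 1.94 to 2.16%. On log2 CPM, principal component 1 took up 71.6% of the variance and placed the WT libraries on one side and the IL13KO libraries on the other. Distances between libraries were 52.2 to 57.2 within WT, 46.3 to 49.3 within IL13KO and 89.9 to 108.2 between the groups, in units of log2 CPM summed over genes as a Euclidean distance.

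Loss of IL-13 from the ILC2s went with differences in a large part of the fibroblast transcriptome, in both directions about equally. Of 15898 tested genes 5806 (36.5%) were called by edgeR's quasi-likelihood test, with 0.05 as the limit on the Benjamini-Hochberg adjusted p. Of these, 2873 (18.1%) were higher with WT ILC2s and 2933 (18.4%) lower. The fitted change was a doubling or more for 838 called genes and a halving or more for 998. Without IL13KO coculture 2 the higher calls numbered 1902 and the lower calls 2097, and with all 10 libraries in the fit 1901 and 1909. The median log2 fold change over all tested genes was 0.00426. These shares are the background against which each gene list below is read, and a list near them does not stand out. Groups without overlap were common as well. Of the 5806 called genes, 3777 had no overlap, averaged 10 CPM or more in the group with the higher level and were not predicted genes. A lack of overlap alone thus does not mark a called gene out. The share of all tested genes without overlap is not given here. Log2 fold changes are given ± SE with WT over IL13KO, so a positive value means a higher level with WT ILC2s, and "higher" and "lower" are used in that sense. CPM values with ± are the mean and standard deviation over the libraries of a group, not the SE.

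**Figure D1:**
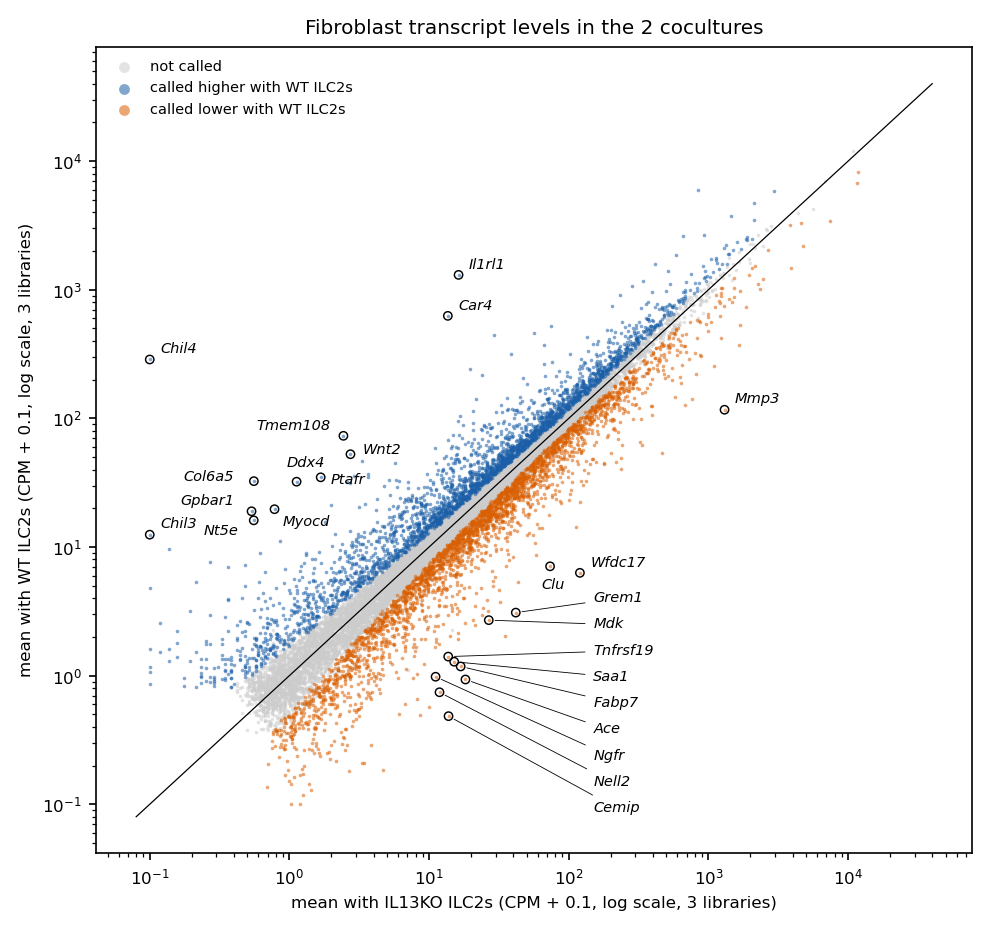
Mean level of each tested gene with IL13KO ILC2s (horizontal) and with WT ILC2s (vertical), in CPM with 0.1 added, both axes logarithmic. Each point is 1 gene and the line marks equal levels. Blue genes were called higher with WT ILC2s (2873) and orange genes lower (2933); circles mark the 12 largest rises and 12 largest falls of the naming rule.

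The genes with the largest rises were secreted lectins, receptors and an enzyme of adenosine production. The 12 with the largest fitted fold change, among called genes of at least 10 CPM whose groups did not overlap, were Chil4, Chil3, Il1rl1, Col6a5, Car4, Gpbar1, Nt5e, Tmem108, Ddx4, Myocd, Ptafr and Wnt2. Chil4 (chromosome 3, 106201490 to 106219507), which encodes a chitinase-like lectin known from type 2 inflammation, stood at 152, 343 and 365 CPM with WT ILC2s and had no read in any IL13KO library. It was at least 4909-fold higher with WT ILC2s. Chil3 (chromosome 3, 106147554 to 106167564), its neighbour and near-identical relative, stood at 6.2005, 15.6 and 15.3 CPM against 0 and was at least 212-fold higher. WT coculture 1 was the lowest of its group for both lectins. Counting may have split the reads of such similar genes. Il1rl1 (chromosome 1, 40429570 to 40465415), which encodes ST2, the receptor of IL-33, stood at 1268, 1450.2 and 1194 CPM with WT ILC2s against 12.5, 18.98 and 16.9 with IL13KO ILC2s (log2 fold change 6.33 ± 0.17, adjusted p = 5.35e-09), and at 4.99 to 8.61 in fibroblasts alone. Car4, a membrane-bound carbonic anhydrase, stood at 492, 683 and 705 CPM with WT ILC2s against 11.1, 15.8 and 13.7 with IL13KO ILC2s (log2 fold change 5.53 ± 0.18, adjusted p = 3.09e-08). For Il1rl1 each IL13KO coculture thus lay above each monoculture, and the WT cocultures lay 80.7-fold above the IL13KO cocultures.

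The other rises came from at most a few CPM in the IL13KO cocultures. Col6a5, a chain of the beaded microfibril collagen VI, stood at 23.5, 38.6 and 35.1 CPM with WT ILC2s against 0.1701, 1.09 and 0.113 with IL13KO ILC2s (log2 fold change 6.13 ± 0.42, adjusted p = 1.86e-06). IL13KO coculture 2 alone held most of the Col6a5 reads of its group, and without it the log2 fold change was 7.76. Gpbar1, a bile acid receptor, stood at 16.5, 20.6 and 19.4 CPM with WT ILC2s against 0.1701, 0.343 and 0.794 with IL13KO ILC2s (5.41 ± 0.30, or 6.15 without IL13KO coculture 3). Nt5e, which encodes CD73, the surface enzyme that makes adenosine from AMP, stood at 17.8, 17.6 and 12.6 CPM with WT ILC2s against 0.624, 0.629 and 0.113 with IL13KO ILC2s (log2 fold change 5.12 ± 0.33, adjusted p = 1.18e-06). Ptafr, the receptor for platelet-activating factor, stood at 35.9, 37.2 and 31.1 CPM with WT ILC2s against 1.47, 2.06 and 1.19 with IL13KO ILC2s (log2 fold change 4.46 ± 0.19, adjusted p = 1.15e-07). That none of these groups overlapped follows from the naming rule. Wnt2, a secreted Wnt ligand, stood at 51.9, 54.1 and 51.6 CPM against 1.93, 2.97 and 3.004 (log2 fold change 4.31 ± 0.16, adjusted p = 5.09e-08). Myocd, the coactivator myocardin of smooth-muscle genes, stood at 20.2, 18.4 and 20.2 CPM against 0.397, 0.686 and 0.964 (log2 fold change 4.83 ± 0.23, adjusted p = 1.69e-07). Tmem108, which encodes a transmembrane protein, stood at 73.9, 79.4 and 65.9 CPM with WT ILC2s against 2.67, 3.83 and 0.5102 with IL13KO ILC2s (4.97 ± 0.36), and 15.6% of its exon bases lie in another annotated gene. Ddx4, an RNA helicase gene best known from germ cells, stood at 19.8, 43.8 and 32.7 CPM with WT ILC2s against 0.681, 1.77 and 0.624 with IL13KO ILC2s (4.96 ± 0.38, or 5.59 without IL13KO coculture 2). In 10 of the 12 rises the mean with IL13KO ILC2s still lay above that of fibroblasts alone.

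Promoter sequence was examined for these genes because STAT6 binds DNA directly. STAT dimers are known to bind TTC and GAA half-sites in inverted repeat, most STATs with 3 bases between them and STAT6 preferably with 4. Both forms read the same on either strand and were searched in the RefSeq promoter table of GRCm38.p6, which covers 250 bases before to 50 after a gene's start. Of the 12 rises 11 have an entry, and 4 of these (36.4%) hold the form with 3 bases between, TTCNNNGAA, while 0 hold the form with 4. Over the whole set 9.55% of 27025 genes hold the form with 3 bases and 8.01% the form with 4. The 4 stretches of 59 bases below, read on the gene's strand of GRCm38.p6, show the match in capitals with 25 bases on each side, since these are the promoters of 4 of the genes with the largest rises.
Chil4, chr3:106219646-106219704: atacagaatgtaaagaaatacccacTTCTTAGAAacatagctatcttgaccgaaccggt
Chil3, chr3:106167703-106167761: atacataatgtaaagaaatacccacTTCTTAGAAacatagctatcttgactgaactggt
Col6a5, chr9:105960819-105960877: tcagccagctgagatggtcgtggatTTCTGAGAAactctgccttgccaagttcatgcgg
Tmem108, chr9:103692840-103692898: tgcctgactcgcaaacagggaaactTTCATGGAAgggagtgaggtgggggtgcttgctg
All 4 genes lie on the minus strand. The matches begin 200, 172, 209 and 66 bases before the RefSeq start for Chil4, Chil3, Col6a5 and this start of Tmem108, and for Chil4 172 bases before the GENCODE start. The GENCODE start of Tmem108 lies 68964 bases from its match. The Chil3 and Chil4 stretches are identical at 56 of 59 positions, so their matches are not independent. Among the 12 falls 9 have an entry and 1, that of Tnfrsf19, holds a match. Over all genes, either form occurred in 306 of 1941 called higher (15.8%), in 288 of 2095 called lower (13.7%) and in 884 of 6392 tested but not called (13.8%). A match is a description of the sequence and not a bound site.

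The genes with the largest falls were a protease, matrix-modifying enzymes, a growth-factor antagonist and an acute-phase gene. The 12 were Cemip, Ace, Wfdc17, Nell2, Fabp7, Grem1, Saa1, Ngfr, Mmp3, Clu, Mdk and Tnfrsf19. Cemip (chromosome 7, 83932857 to 84086502), which encodes a protein needed for hyaluronan breakdown, stood at 0.2696, 0.7199 and 0.163 CPM with WT ILC2s against 15.9, 12.1 and 13.1 with IL13KO ILC2s (log2 fold change -5.13 ± 0.33, adjusted p = 9.72e-07). Its log2 fold change was -5.91 without WT coculture 3, the highest of its group. Mmp3 (chromosome 9, 7445822 to 7455975), the gene of stromelysin 1, stood at 89.95, 134 and 126 CPM with WT ILC2s against 1527, 1239.6 and 1144 with IL13KO ILC2s (log2 fold change -3.48 ± 0.16, adjusted p = 1.69e-07), and at 1721 to 2593 in fibroblasts alone. Grem1 (chromosome 2, 113746164 to 113758646), which blocks bone morphogenetic proteins (BMPs) outside the cell, stood at 1.44, 3.29 and 4.24 CPM with WT ILC2s against 51.6, 45.5 and 27.9 with IL13KO ILC2s (log2 fold change -3.82 ± 0.32, adjusted p = 7.28e-06). That every WT library lay below every IL13KO library for these 3 genes follows from the naming rule.

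Among the other falls, Ace, the angiotensin-converting enzyme, stood at 0.719, 1.18 and 0.598 CPM with WT ILC2s against 21.4, 21.3 and 11.6 with IL13KO ILC2s (log2 fold change -4.43 ± 0.31, adjusted p = 1.99e-06). Wfdc17, a gene of the whey acidic protein family, stood at 6.43, 7.77 and 4.403 CPM against 152, 108 and 100.1 (log2 fold change -4.27 ± 0.21, adjusted p = 2.22e-07). Saa1, an acute-phase gene with the near-identical copy Saa2, stood at 1.08, 1.49 and 0.978 CPM against 13.4, 12.5 and 19.2 (log2 fold change -3.66 ± 0.24, adjusted p = 1.23e-06). Clu, the gene of the chaperone clusterin, stood at 5.48, 7.41 and 8.05 CPM with WT ILC2s against 79.96, 104 and 35.9 with IL13KO ILC2s (log2 fold change -3.4 ± 0.33, adjusted p = 2.03e-05) and was most variable with IL13KO ILC2s. Genes with ties to nerve or growth signals were lower too. Ngfr, the neurotrophin receptor p75, stood at 0.809, 1.23 and 0.598 CPM against 10.5, 11.9 and 10.7 (-3.64 ± 0.24). Mdk, the growth factor midkine, stood at 2.02, 2.57 and 3.21 CPM against 31.2, 29.6 and 19.2 (-3.37 ± 0.23). Nell2, a secreted protein best known from neurons, stood at 0.404, 0.926 and 0.598 CPM against 14.3, 13.2 and 7.82 (-4.198 ± 0.32). Both Mdk and Nell2 had their lowest IL13KO value in IL13KO coculture 3. Fabp7, a fatty-acid binding protein, and Tnfrsf19, a receptor of the tumour necrosis factor family, were 15.2-fold and 10.2-fold lower (-3.93 ± 0.20 and -3.36 ± 0.24). In all 12 falls the WT mean lay below that of fibroblasts alone, whereas the IL13KO mean lay above it in 7 and below it in 5.

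**Figure D2:**
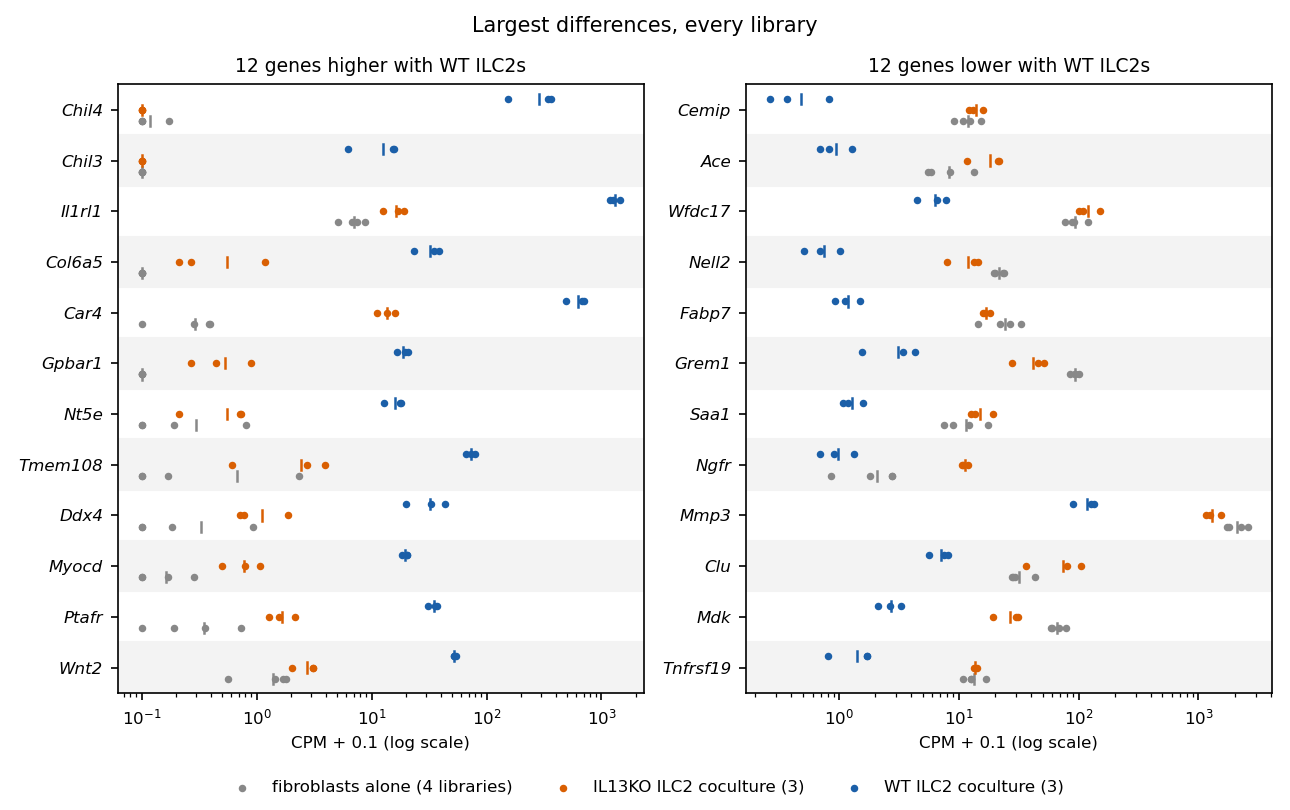
Level of the 12 largest rises (left) and the 12 largest falls (right) in every library, in CPM with 0.1 added on a logarithmic axis. Points are libraries (grey, 4 of fibroblasts alone; orange, 3 with IL13KO ILC2s; blue, 3 with WT ILC2s) and short bars are group means. The blue and orange points are apart in each of the 24 rows, as the naming rule required.

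Genes of the type 2 response were mostly higher with WT ILC2s. On this list of 32 listed genes 15 were abundant enough to test, of which 11 were called higher with WT ILC2s, 2 lower and 2 neither way (median log2 fold change 2.42), against the background of 18.1% called higher. Ccl11 (chromosome 11, 82057823 to 82062955), the eosinophil chemokine eotaxin, stood at 5377, 5598 and 6926 CPM with WT ILC2s against 753, 907 and 868 with IL13KO ILC2s (log2 fold change 2.82 ± 0.13, adjusted p = 1.26e-07), and at 86.9 to 117 in fibroblasts alone. The IL13KO cocultures thus held an intermediate level of Ccl11, above every monoculture and below every WT library. Serpinb2, a serpin that inhibits plasminogen activators, stood at 20.8, 38.6 and 29.95 CPM against 5.73, 4.63 and 3.51 (log2 fold change 2.68 ± 0.24, adjusted p = 1.08e-05). Postn, the matricellular protein periostin, stood at 847, 1380.2 and 2529 CPM against 384, 475 and 376 (log2 fold change 1.94 ± 0.30, adjusted p = 5.27e-04). Batf3, a bZIP transcription factor, was at 6.77 ± 2.06 against 1.403 ± 0.199 CPM (2.26 ± 0.28). Arg1, the arginase known from alternative macrophage activation, was low in both groups, at 2.12 ± 0.569 against 0.379 ± 0.184 CPM. So was Alox15, a lipoxygenase, at 1.25 ± 0.305 against 0.228 ± 0.115 CPM. The list also held 2 falls. Tgm2, a transglutaminase that crosslinks matrix proteins, stood at 45.6, 39.3 and 34.5 CPM against 151, 115 and 117 (log2 fold change -1.68 ± 0.13, adjusted p = 4.69e-06). The adhesion molecule gene Vcam1 stood at 200.5, 153 and 166 CPM against 247, 276 and 242 (log2 fold change -0.56 ± 0.11, adjusted p = 0.00218). Of the 14 list members with a promoter entry 7 hold at least 1 of the forms described above, against 16.6% of all genes in the promoter table. Of the 8 of these called higher, 4 hold the form with 3 bases between and 0 the form with 4. Those 4 include Chil3 and Chil4, whose matches are not independent. Ccl11 was not matched to an entry.

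The receptor chains of IL-13 differed from each other. Il13ra2 (chromosome X, 147383476 to 147429192), the decoy chain, stood at 398, 492 and 504 CPM with WT ILC2s against 48.03, 57.01 and 64.4 with IL13KO ILC2s (log2 fold change 3.04 ± 0.13, adjusted p = 1.19e-07). By contrast Il13ra1, the signalling chain, stood at 148, 183 and 157 CPM with WT ILC2s against 190.0, 174 and 173 with IL13KO ILC2s and was not called (adjusted p = 0.294). Il4ra, the chain shared with IL-4, stood at 774, 649 and 374 CPM with WT ILC2s against 824, 843 and 840.3 with IL13KO ILC2s (log2 fold change -0.48 ± 0.20, adjusted p = 0.0802) and was called without WT coculture 1 (-0.71, adjusted p = 0.0116) and by DESeq2 (adjusted p = 0.0315). Stat6 itself was not called (-0.08 ± 0.09, adjusted p = 0.533). Over the list of receptors, Janus kinases and STATs, 15 of 16 were tested, 3 were higher with WT ILC2s and 5 lower (median log2 fold change -0.25). Jak1, a kinase of the IL-4 receptor complex, was lower at 372 ± 19.6 against 560.5 ± 25.3 CPM, as was Stat5a at 11.3 ± 0.874 against 20.2 ± 0.991 CPM. The common gamma chain gene Il2rg was higher, at a low level of 3.12 ± 1.03 against 0.929 ± 0.312 CPM. The lower count was 3 without IL13KO coculture 1, 3 without 2, and 3 and 3 without WT cocultures 3 and 4.

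Some STAT-induced feedback inhibitors were higher and others were not. Cish, an inhibitor of STAT5 signalling, stood at 58.8, 57.2 and 60.5 CPM against 8.68, 10.7 and 13.4 (log2 fold change 2.42 ± 0.15, adjusted p = 7.01e-07). Socs2, of the same family, stood at 187, 176 and 177 CPM against 85.9, 88.8 and 90.5 (log2 fold change 1.02 ± 0.08, adjusted p = 3.80e-06). Socs1, the inhibitor known to restrain IL-4 and interferon signalling, stood at 168, 169 and 149 CPM with WT ILC2s against 90.2, 92.97 and 107 with IL13KO ILC2s (log2 fold change 0.75 ± 0.10, adjusted p = 1.41e-04), and this call ended with all 10 libraries in the fit (adjusted p = 0.0529). Socs3 and Socs7 were not called. In all 5 of 13 tested members were higher with WT ILC2s and 3 lower, out of 13 listed (median -0.05). Counts on this list were fragile, with 3 higher without IL13KO coculture 1, 3 without 2, 3 without 3 and 3 without WT coculture 3. The lower count was 0 without IL13KO coculture 2 and 0 without WT coculture 3, and 1 and 1 without IL13KO coculture 3 and WT coculture 4.

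Receptors of the common beta and IL-6 families changed in both directions. Csf2rb, the signalling chain for IL-3, IL-5 and GM-CSF, stood at 49.6, 46.8 and 38.7 CPM against 9.19, 12.7 and 11.2 (log2 fold change 2.03 ± 0.15, adjusted p = 2.45e-06). Its near-identical copy Csf2rb2 stood at 45.02, 40.1 and 23.2 CPM against 8.45, 16.1 and 11.4 (log2 fold change 1.59 ± 0.26, adjusted p = 7.51e-04). Il11, a fibroblast cytokine of the IL-6 family, stood at 6.74, 8.38 and 8.59 CPM against 0.907, 1.83 and 1.53 (log2 fold change 2.47 ± 0.25, adjusted p = 2.47e-05). Lif, leukaemia inhibitory factor, was at 2.61 ± 0.5399 against 0.702 ± 0.314 CPM (1.89 ± 0.35). Il6ra, the IL-6 binding chain, was at 16.7 ± 0.607 against 8.11 ± 1.198 CPM (1.04 ± 0.14). Other receptor genes of that family went the other way. Il11ra1, Osmr and Lifr were 1.74-fold, 1.55-fold and 1.57-fold lower. Of the list, 16 of 21 were tested, 7 were higher with WT ILC2s and 7 lower (median log2 fold change -0.20).

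The 4 chemokine genes named here from the eotaxin and monocyte-attracting cluster were higher with WT ILC2s. Ccl2, Ccl7, Ccl11 and Ccl8 lie in that order in 1 cluster, with Ccl2 at chromosome 11, 82035571 to 82037453, and Ccl8 at chromosome 11, 82115185 to 82116799. Ccl2, the monocyte chemoattractant, stood at 2458, 2746 and 2659.9 CPM against 617, 711 and 636 (log2 fold change 2.002 ± 0.10, adjusted p = 1.82e-07). Ccl7, which attracts monocytes too, stood at 3306, 4209 and 3750.4 CPM against 1486, 1372 and 1464 (log2 fold change 1.38 ± 0.11, adjusted p = 3.42e-06). Ccl8 stood at 70.4, 105 and 95.2 CPM against 54.4, 54.3 and 52.4 (log2 fold change 0.75 ± 0.13, adjusted p = 0.00127). These 4 genes were all higher, with no overlap between groups. Ccl12, also on the chemokine list, was not in the count table. Among CXC chemokines, Cxcl13, the B-cell attractant, stood at 343, 561 and 437 CPM with WT ILC2s against 25.6, 29.5 and 32.1 with IL13KO ILC2s (log2 fold change 3.94 ± 0.18, adjusted p = 1.26e-07). The neutrophil attractants Cxcl5 and Cxcl1 were higher as well. Cxcl5 stood at 1907, 1735 and 1895 CPM against 549.9, 629 and 566 (log2 fold change 1.67 ± 0.09, adjusted p = 4.15e-07) and Cxcl1 at 131, 130.0 and 138 CPM against 49.6, 58.7 and 58.5 (1.25 ± 0.09). Cxcl14, a chemokine of resting stroma, was lower at 24.7, 26.6 and 25.01 CPM against 81.7, 73.9 and 70.2 (log2 fold change -1.56 ± 0.10, adjusted p = 9.67e-07). Cx3cl1, fractalkine, was lower at 21.9, 13.01 and 8.97 CPM against 40.04, 53.6 and 40.1 (log2 fold change -1.599 ± 0.26, adjusted p = 6.80e-04). Of the chemokine list without Ccl11, 19 of 32 were tested, 8 were higher with WT ILC2s and 5 lower (median log2 fold change 0.18).

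Il33 (chromosome 19, 29925114 to 29960718), the alarmin that activates ILC2s, was lower with WT than with IL13KO ILC2s, at 346, 361 and 277 CPM with WT ILC2s against 667, 614 and 605 with IL13KO ILC2s (log2 fold change -0.94 ± 0.11, adjusted p = 6.54e-05). Fibroblasts alone held 219 to 398 CPM. Thus the WT level of Il33 lay within the monoculture range and the IL13KO level above it, the reverse of the pattern of its receptor gene Il1rl1. Of the other factors known to support ILC2s, Cd274, which encodes PD-L1, was higher at 5.17 ± 0.591 against 1.799 ± 0.371 CPM (1.52 ± 0.22). Il7 was not called (-0.45 ± 0.22). The list had 4 higher and 2 lower among 11 tested of 20 listed, with 2 higher without IL13KO coculture 2 and 1 with all 10 libraries in the fit.

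NF-κB targets changed in both directions. Of these genes, 31 of 33 were tested, 16 were higher with WT ILC2s and 9 lower (median log2 fold change 0.46). The rises included the chemokines above and inhibitors of the pathway itself. Zc3h12a, an RNase that degrades cytokine transcripts, stood at 38.4, 36.3 and 35.7 CPM against 10.04, 10.3 and 8.33 (log2 fold change 1.95 ± 0.12, adjusted p = 9.67e-07). Nfkbia, the gene of IκBα, stood at 133, 124 and 141 CPM against 69.9, 72.7 and 74.03 (log2 fold change 0.88 ± 0.09, adjusted p = 2.00e-05). The subunit gene Nfkb1 was at 22.5 ± 2.27 against 8.37 ± 0.912 CPM (1.42 ± 0.14). Among the falls, Saa3, an acute-phase gene, stood at 119, 152 and 155 CPM with WT ILC2s against 862, 751 and 684 with IL13KO ILC2s (log2 fold change -2.43 ± 0.13, adjusted p = 2.37e-07), in the same cluster as Saa1 and Saa2 on chromosome 7. Lcn2, an iron-scavenging lipocalin, was at 3.296 ± 0.558 against 9.79 ± 1.36 CPM (-1.57 ± 0.19). Il1rn, the IL-1 receptor antagonist, was at 0.467 ± 0.267 against 3.16 ± 0.186 CPM (-2.78 ± 0.37). Icam1, an adhesion molecule, was at 35.1 ± 0.461 against 64.6 ± 11.1 CPM.

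**Figure D3:**
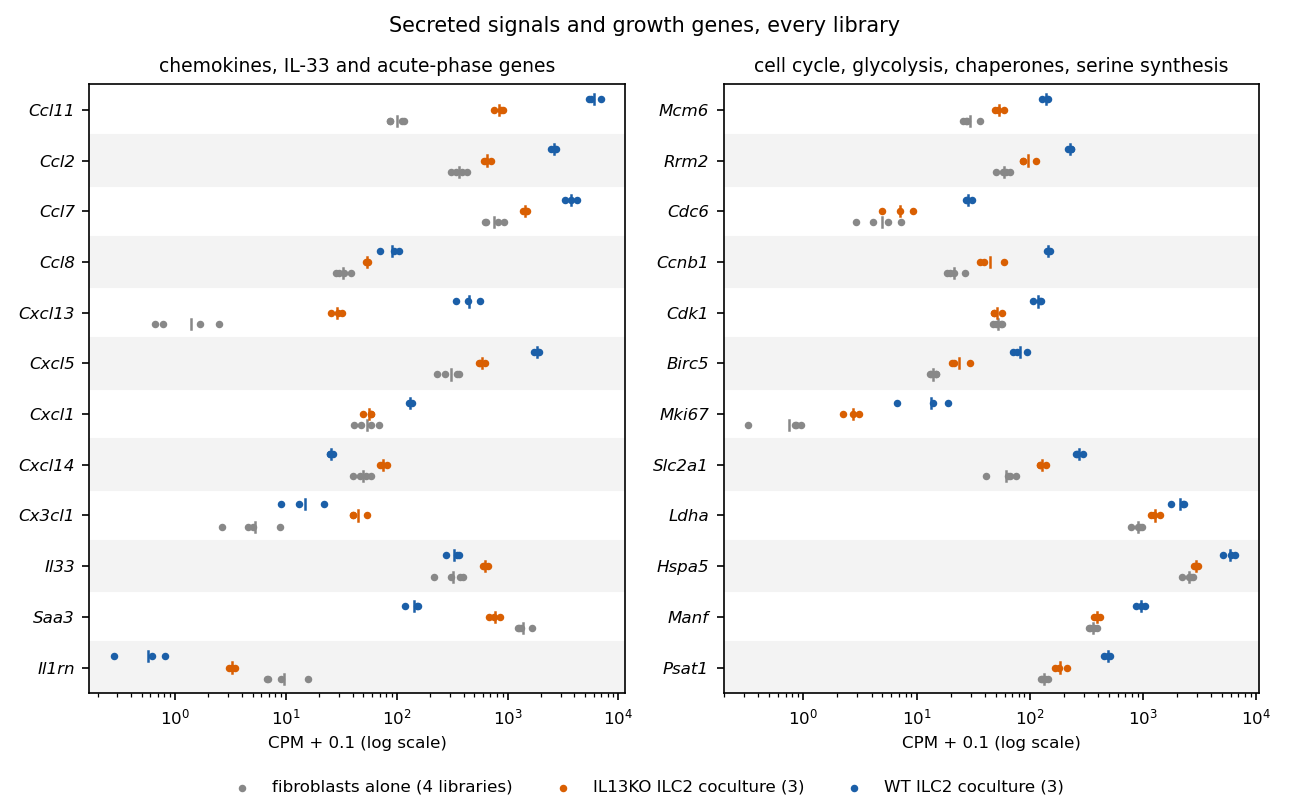
Levels of secreted-signal genes (left) and growth-related genes (right) in every library, in CPM with 0.1 added on a logarithmic axis, with points and bars as in the plot of the largest differences. Ccl11, Ccl2, Ccl7 and Cxcl13 are higher in each blue library than in each orange one, Il33, Saa3 and Cxcl14 lower, and each gene of the right panel is higher.

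Cell-cycle genes were higher with WT ILC2s almost without exception. Of DNA replication genes, 30 of 31 tested members were higher with WT ILC2s and 1 lower, out of 31 listed (median 1.24). Of mitosis and cytokinesis genes, 30 of 30 tested members were higher with WT ILC2s and 0 lower, out of 30 listed (median 1.62). Mcm6, a subunit of the replicative helicase, stood at 141, 129 and 146 CPM against 52.1, 49.6 and 59.3 (log2 fold change 1.37 ± 0.10, adjusted p = 2.20e-06), and Mcm3, of the same ring, at 69.5 ± 10.7 against 23.9 ± 2.99 CPM (1.54 ± 0.13). Cdc6, which loads that helicase, stood at 27.4, 27.6 and 31.04 CPM with WT ILC2s against 6.98, 4.86 and 9.13 with IL13KO ILC2s (log2 fold change 2.03 ± 0.19, adjusted p = 1.46e-05). Enzymes of nucleotide supply were higher too. Rrm2, a subunit of ribonucleotide reductase, stood at 219, 233 and 232 CPM against 87.6, 87.4 and 114 (log2 fold change 1.24 ± 0.11, adjusted p = 9.91e-06). Tyms, thymidylate synthase, was at 112 ± 13.9 against 42.9 ± 4.26 CPM (1.38 ± 0.12). The single replication gene called lower was E2f1 (-0.43, adjusted p = 0.0236), which codes for a transcription factor of the S phase. Its call ended without WT coculture 4 (adjusted p = 0.0627), IL13KO coculture 1 (0.0664) or 2 (0.105) and with all 10 libraries in the fit (0.0607). It also ended with the trend on GC content and length removed (-0.26, adjusted p = 0.14).

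Mitotic genes differed by more than replication genes in the median. Kif11, a spindle motor, stood at 42.01, 35.6 and 42.5 CPM against 12.3, 11.9 and 13.3 (log2 fold change 1.68 ± 0.12, adjusted p = 2.20e-06). Ccnb1, cyclin B1, stood at 147, 141 and 150.4 CPM against 39.4, 36.02 and 59.01 (log2 fold change 1.704 ± 0.16, adjusted p = 1.35e-05). Plk1, a mitotic kinase, was at 85.6 ± 8.11 against 28.2 ± 5.31 CPM (1.605 ± 0.14). Every one of these genes was higher in each WT library than in each IL13KO library, a separation that many called genes showed. Mki67, the proliferation antigen Ki-67, stood at 6.605, 13.99 and 19.03 CPM against 2.16, 3.03 and 2.66 (log2 fold change 2.33 ± 0.34, adjusted p = 3.69e-04). Birc5, survivin, stood at 71.8, 77.8 and 94.3 CPM against 21.2, 20.4 and 29.5 (log2 fold change 1.78 ± 0.15, adjusted p = 8.50e-06). Over the 30 mitotic members the log2 fold changes ran from 0.97 (Kif20a) to 2.38 (Cenpf). The part of lymphocyte RNA in these transcripts was not tested. The summed level of leukocyte markers is given below. Among p53 targets, 3 higher and 7 lower among 18 tested of 19 listed were counted (1 higher without IL13KO coculture 2). The apoptosis gene Pmaip1 was lower at 4.95 ± 0.666 against 15.8 ± 0.443 CPM (-1.67 ± 0.15). The death receptor gene Fas was higher at 56.6 ± 8.06 against 27.7 ± 2.17 CPM (1.03 ± 0.12).

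Glycolysis and hypoxia genes were higher, and none was called lower. Of these, 29 of 30 were tested, 20 were higher with WT ILC2s and 0 lower (median log2 fold change 0.72). Slc2a1, the glucose transporter GLUT1, stood at 258, 265 and 295 CPM against 139, 123 and 123 (log2 fold change 1.09 ± 0.09, adjusted p = 6.66e-06). Slc16a3, the lactate exporter MCT4, stood at 429, 548 and 306 CPM against 117, 121 and 166 (log2 fold change 1.67 ± 0.19, adjusted p = 7.47e-05). Egln3, an oxygen-sensing prolyl hydroxylase that hypoxia is known to induce, stood at 17.2, 26.9 and 20.7 CPM with WT ILC2s against 2.67, 3.54 and 3.85 with IL13KO ILC2s (log2 fold change 2.68 ± 0.20, adjusted p = 3.42e-06). The enzymes of the pathway moved by smaller steps, from 0.44 for Aldoa to 0.82 for Tpi1 among the enzymes from aldolase to lactate dehydrogenase that were called. Ldha, which makes lactate, was at 2124 ± 291 against 1286 ± 125 CPM (0.72 ± 0.12). Pfkfb4, whose product makes an activator of phosphofructokinase, was at 27.6 ± 1.501 against 10.2 ± 1.13 CPM (1.43 ± 0.13). Vegfa, a hypoxia target as well, was not called.

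Chaperones of the endoplasmic reticulum were higher too. On that list, 20 of 20 were tested, 12 were higher with WT ILC2s and 1 lower (median log2 fold change 0.38). Hspa5, the chaperone BiP, stood at 5069, 6523 and 6083 CPM against 2855, 2917 and 3052 (log2 fold change 1.002 ± 0.11, adjusted p = 4.19e-05). Manf, a secreted protein of the same response, stood at 875, 1054 and 963 CPM against 372, 394 and 416 (log2 fold change 1.29 ± 0.10, adjusted p = 2.72e-06). Sdf2l1 was at 287 ± 36.5 against 121 ± 4.92 CPM (1.24 ± 0.10), and Herpud1, of the pathway that degrades misfolded proteins, was not called. The genes of serine synthesis and 1-carbon metabolism, many of them targets of ATF4, were higher as well. Psat1, an aminotransferase of serine synthesis, stood at 453, 495 and 515 CPM against 179.9, 167 and 214 (log2 fold change 1.38 ± 0.11, adjusted p = 3.39e-06). Shmt2, which turns serine into glycine in mitochondria, stood at 300.4, 279 and 277 CPM against 138, 134 and 161 (log2 fold change 0.98 ± 0.09, adjusted p = 1.52e-05). That list had 13 higher and 2 lower among 23 tested of 23 listed (median log2 fold change 0.44), with 4 lower without WT coculture 1 and 8 higher with all 10 libraries in the fit. Cebpb, an ATF4 partner that also acts in adipogenesis, was lower at 28.2, 17.8 and 23.3 CPM with WT ILC2s against 33.01, 66.3 and 76.8 with IL13KO ILC2s (log2 fold change -1.34 ± 0.26, adjusted p = 0.00241). Sterol synthesis genes had 13 higher and 3 lower among 26 tested of 26 listed (median 0.29), or 8 higher without IL13KO coculture 1.

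The matrix genes changed by class rather than together. Collagen VI chains and crosslinking enzymes were higher with WT ILC2s, whereas fibrillar collagens, proteoglycans, elastic fibre and basement membrane genes were lower. For fibrillar and beaded collagens, 19 of 22 were tested, 6 were higher with WT ILC2s and 9 lower (median log2 fold change -0.36), a median that was -0.0674 with the trend on GC content and length removed. Col6a1 and Col6a2, neighbours on chromosome 10, encode 2 of the 3 chains of the common collagen VI trimer. Col6a1 stood at 2589, 2846 and 2623 CPM with WT ILC2s against 834, 1059.9 and 890.0 with IL13KO ILC2s (log2 fold change 1.53 ± 0.11, adjusted p = 1.93e-06), and Col6a2 at 1067, 1269 and 1199.5 CPM against 279, 403 and 339.7 (1.79 ± 0.13). Col6a3, the third chain of that trimer, stood at 68.3, 53.8 and 55.7 CPM with WT ILC2s against 40.2, 54.7 and 57.3 with IL13KO ILC2s and was not called (adjusted p = 0.24, or 0.0233 with the trend on GC content and length removed). Col6a6, next to Col6a5 on chromosome 9, had 573 reads over the WT cocultures and 2 over the IL13KO cocultures, a ratio of 252, exact 95% counting interval 69.3 to 2082. Fibroblasts alone had no read of Col6a5 or Col6a6. So 4 of 5 measured collagen VI genes were higher, 2 of them from near 0.

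The major fibrillar collagens went the other way. Col3a1, the chain of collagen III, stood at 3227, 4010.4 and 3071 CPM against 7863, 8189.9 and 6201 (log2 fold change -1.11 ± 0.13, adjusted p = 9.79e-05). Col14a1, a collagen that coats fibrils, stood at 121, 118 and 145 CPM against 313, 328 and 252 (log2 fold change -1.22 ± 0.12, adjusted p = 1.85e-05). Col1a1, a chain of collagen I, stood at 8644, 7303 and 4399 CPM against 11335, 13065 and 10387 (log2 fold change -0.77 ± 0.20, adjusted p = 0.0113). Col1a2, its partner, stood at 2013, 2000.1 and 2066 CPM against 2796, 2809.5 and 2382 (log2 fold change -0.39 ± 0.09, adjusted p = 0.00716). The chains of collagen I lost their calls with all 10 libraries in the fit (Col1a1 adjusted p = 0.0588 and Col1a2 0.0592). Fibroblasts alone held 819 to 1687 CPM of Col1a1, below both cocultures. The order for Col1a1 was thus monoculture, WT coculture and IL13KO coculture from low to high.

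Enzymes that process and crosslink collagen were higher with WT ILC2s, with 11 higher and 2 lower among 23 tested of 24 listed (median log2 fold change 0.30, or 0.159 without IL13KO coculture 3). Lox, the founding lysyl oxidase, stood at 4745, 4391 and 4963 CPM against 2081, 2113 and 2215 (log2 fold change 1.14 ± 0.09, adjusted p = 4.82e-06). Loxl3, of the same family, stood at 792, 702 and 759 CPM against 187, 202 and 219.8 (log2 fold change 1.89 ± 0.09, adjusted p = 2.22e-07), and Loxl4 was at 91.4 ± 4.82 against 20.4 ± 3.46 CPM (2.16 ± 0.13). Of the remaining lysyl oxidase genes, Loxl2 was higher (0.49 ± 0.09) and Loxl1 was not called (-0.30 ± 0.14, adjusted p = 0.112, or 0.0491 without WT coculture 1). Adamts14, a procollagen N-proteinase, stood at 37.02, 36.2 and 25.3 CPM against 3.23, 6.69 and 5.33 (log2 fold change 2.69 ± 0.23, adjusted p = 8.69e-06). Pcolce2, an enhancer of the C-proteinase, was at 490.5 ± 10.4 against 199 ± 18.5 CPM (1.299 ± 0.09). Relatives of both moved the other way. Pcolce was at 254 ± 38.7 against 473 ± 21.3 CPM (-0.89 ± 0.11) and Adamts2 at 630.3 ± 55.8 against 1218 ± 203 CPM (-0.95 ± 0.12). P4ha1 and Plod2, hydroxylases of proline and lysine in collagen, were 1.77-fold and 1.57-fold higher. Serpinh1, the collagen chaperone HSP47, and Bmp1, the C-proteinase, were not called.

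Small leucine-rich proteoglycans, which bind collagen fibrils, were lower: 9 of 11 tested members fell and 0 rose (median log2 fold change -0.89), against 18.4% lower over all genes. Dcn, decorin, stood at 298, 426 and 389 CPM against 1891, 1655 and 1414 (log2 fold change -2.16 ± 0.15, adjusted p = 1.56e-06). Lum, lumican, its neighbour on chromosome 10, stood at 48.2, 49.2 and 50.4 CPM against 251, 229 and 224 (log2 fold change -2.25 ± 0.09, adjusted p = 5.61e-08). Podn, podocan, stood at 3.68, 2.98 and 2.61 CPM against 32.1, 25.8 and 20.6 (log2 fold change -3.07 ± 0.20, adjusted p = 1.12e-06), and Fmod, fibromodulin, was at 22.7 ± 2.32 against 86.2 ± 8.79 CPM (-1.92 ± 0.11). Bgn, biglycan, differed less, at 802 ± 159.9 against 1469 ± 187 CPM (-0.87 ± 0.14). Omd and Podnl1 were not called. Fibroblasts alone held 2153 to 3563 CPM of Dcn and 466 to 913 of Lum, so that the order for both was monoculture, IL13KO coculture and WT coculture from high to low, with no overlap between the libraries of the latter pair.

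Elastic fibre genes had 3 higher and 10 lower among 17 tested of 18 listed (median -0.53), with 1 higher without IL13KO coculture 1 and 0 with all 10 libraries in the fit. Genes of latent TGF-β binding proteins, which tether the cytokine to the matrix, were lower. Ltbp1 stood at 32.8, 30.9 and 27.3 CPM against 128, 111 and 138 (log2 fold change -2.06 ± 0.11, adjusted p = 3.49e-07) and Ltbp2 at 61.2, 52.6 and 46.9 CPM against 199.6, 224 and 177 (-1.901 ± 0.12). Fbln2, fibulin 2, stood at 879.5, 1127 and 1034 CPM against 2564, 2553 and 1957 (log2 fold change -1.22 ± 0.13, adjusted p = 3.54e-05). Eln, elastin, was at 11.9 ± 5.17 against 36.03 ± 6.16 CPM (-1.59 ± 0.26). Basement membrane genes had 2 higher and 13 lower among 22 tested of 26 listed (median -0.58), or 7 lower with all 10 libraries in the fit. Col15a1, which also marks parenchymal fibroblasts, stood at 43.04, 36.6 and 17.02 CPM against 111, 149.7 and 107 (log2 fold change -1.93 ± 0.26, adjusted p = 2.33e-04). Nid2, nidogen 2, stood at 18.02, 15.1 and 11.9 CPM against 63.9, 59.2 and 54.2 (log2 fold change -1.97 ± 0.15, adjusted p = 2.82e-06). Col4a2, a chain of collagen IV, was at 30.2 ± 6.86 against 82.9 ± 6.04 CPM (-1.45 ± 0.15), and Smoc2 at 146 ± 24.9 against 578 ± 41.9 CPM (-1.98 ± 0.12). The laminin chain gene Lama5 was lower (-3.06 ± 0.36).

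Hyaluronan genes had 5 higher and 1 lower among 11 tested of 14 listed (median 0.39, or 0.237 without IL13KO coculture 2). Against the fall of Cemip, Tnfaip6, whose product links proteins to hyaluronan, was higher at 72.6, 81.6 and 80.5 CPM against 25.6, 25.3 and 26.9 (log2 fold change 1.59 ± 0.10, adjusted p = 6.73e-07). Has1, a hyaluronan synthase, was at 75.3 ± 14.9 against 49.5 ± 2.95 CPM (0.61 ± 0.13), and Has2 was not called (-0.36 ± 0.23). Among proteases and inhibitors, 30 of 33 were tested, 4 were higher with WT ILC2s and 16 lower (median log2 fold change -0.44). The cluster on chromosome 9 that holds Mmp3 also holds Mmp10, Mmp13 and Mmp8, and all 4 were lower. Mmp10, stromelysin 2, stood at 2.202, 2.47 and 2.45 CPM against 25.1, 19.2 and 19.8 (log2 fold change -3.17 ± 0.17, adjusted p = 2.87e-07). Mmp13, an interstitial collagenase, stood at 3.64, 3.75 and 3.91 CPM against 30.1, 25.7 and 21.5 (log2 fold change -2.77 ± 0.16, adjusted p = 4.95e-07). Mmp8 was at 2.29 ± 0.815 against 9.78 ± 1.19 CPM (-2.103 ± 0.25). The inhibitor gene Timp1 was higher, at 1413, 1787 and 2029.6 CPM against 1065, 1002 and 1062 (log2 fold change 0.74 ± 0.12, adjusted p = 7.86e-04), and Timp2 was not called. Genes of plasminogen activation were higher as well. Plat, tissue plasminogen activator, was at 774 ± 52.6 against 430.1 ± 24.1 CPM, and Plaur, the urokinase receptor, at 69.5 ± 5.51 against 37.2 ± 1.85 CPM.

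**Figure D4:**
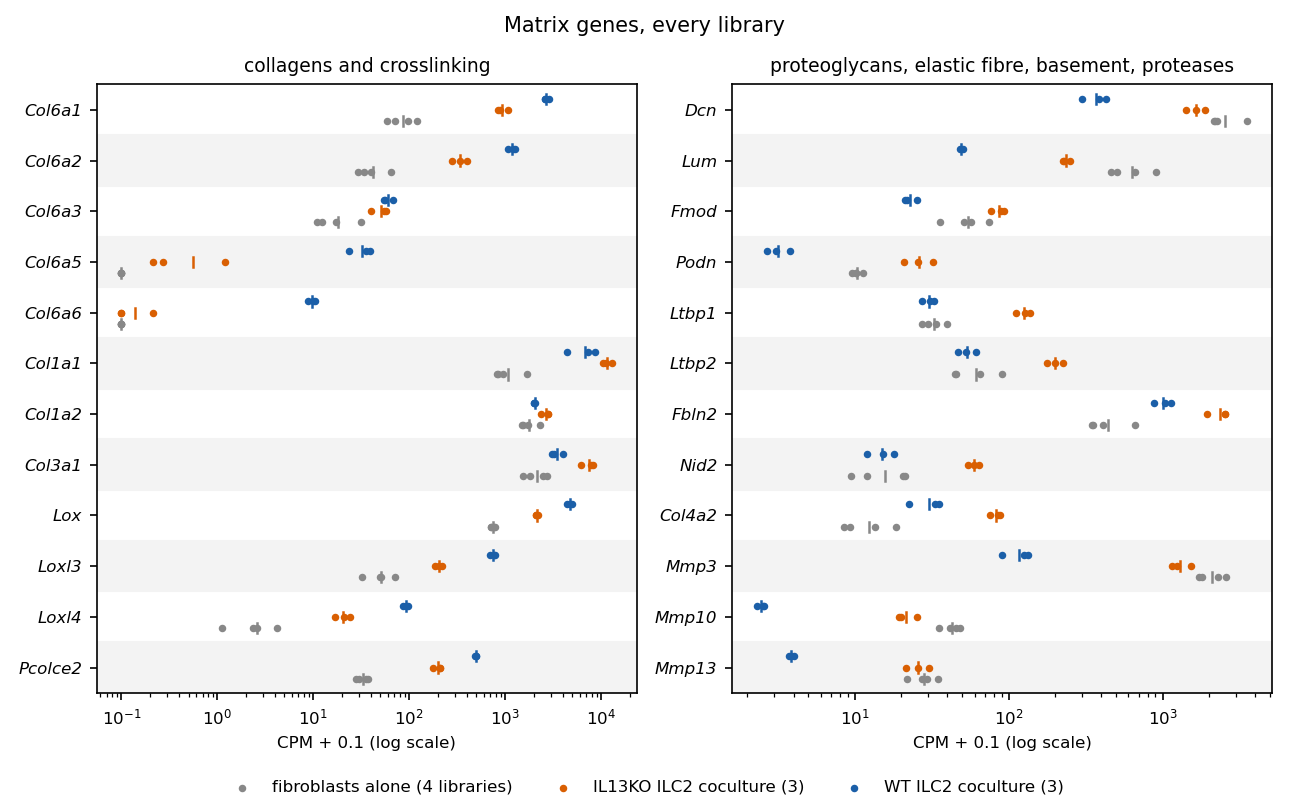
Levels of collagen and crosslinking genes (left) and of proteoglycan, elastic fibre, basement membrane and protease genes (right) in every library, in CPM with 0.1 added on a logarithmic axis, with points and bars as in the plot of the largest differences. Lox, Loxl3 and 4 of the 5 collagen VI genes are higher in each blue library than in each orange one, and all 12 genes of the right panel are lower.

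Listed TGF-β pathway genes that were called were lower with WT ILC2s, with 1 exception. Of the ligands, receptors and targets, 30 of 30 were tested, 1 was higher with WT ILC2s and 15 lower (median log2 fold change -0.34). With the trend on GC content and length removed, 3 were higher and 12 lower. The summed level of the list was not lower, at 4456 to 5042 CPM with WT and 4065 to 4668 with IL13KO ILC2s. The receptor gene Tgfbr1 stood at 229.6, 196 and 183 CPM against 436, 403 and 335 (log2 fold change -0.95 ± 0.12, adjusted p = 1.10e-04). Tgfbr3, the coreceptor betaglycan, stood at 118, 90.6 and 88.99 CPM against 211, 213 and 182 (log2 fold change -1.03 ± 0.12, adjusted p = 6.87e-05). The ligand gene Tgfb3 was at 22.9 ± 2.37 against 46.9 ± 7.28 CPM (-1.03 ± 0.13). Tgfb1 was not called (adjusted p = 0.0582, and 0.0163 without IL13KO coculture 1, 0.0482 with the trend on GC content and length removed), nor was Tgfb2. Among targets known to report the pathway, Ccn2 and Smad7 were lower. Ccn2, connective tissue growth factor, was at 14.9 ± 3.44 against 28.2 ± 4.65 CPM (-0.92 ± 0.18). The feedback gene Smad7 was at 19.7 ± 1.71 against 29.7 ± 2.54 CPM (-0.59 ± 0.12). The single rise was Bhlhe40, a transcription factor with other inducers too, at 425, 423 and 391 CPM with WT ILC2s against 198, 185 and 195 with IL13KO ILC2s (log2 fold change 1.097 ± 0.08, adjusted p = 2.75e-06).

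BMP signalling genes were lower at several levels, with 1 higher and 15 lower among 24 tested of 29 listed (median -0.63). The single rise was lost on leaving out any library but WT coculture 4. The Id genes, direct targets of BMP receptors, were lower. Id3 stood at 214, 206 and 242 CPM against 903, 810.2 and 746 (log2 fold change -1.89 ± 0.10, adjusted p = 3.49e-07), and Id1 at 60.7, 49.9 and 74.9 CPM against 121, 126 and 125 (adjusted p = 1.48e-04). Id4 was at 8.71 ± 1.69 against 36.7 ± 15.1 CPM (-2.07 ± 0.28). Receptor genes Bmpr1a and Bmpr2 were 1.49-fold and 1.47-fold lower. Antagonists were lower as well, Grem1 as given above and Nog, noggin, at 2.33 ± 0.573 against 7.56 ± 0.877 CPM (-1.69 ± 0.21). Gdf10, a ligand of the superfamily, stood at 80.9, 58.7 and 46.5 CPM against 216, 275 and 228 (log2 fold change -1.95 ± 0.17, adjusted p = 1.10e-05). Bmp4 was not called (0.18 ± 0.15). Fibroblasts alone held 1869.6 to 2089 CPM of Id3, above both cocultures.

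Wnt genes had 3 higher and 16 lower among 27 tested of 39 listed (median -0.73). Besides Wnt2, the rises were Wnt4, at 32.9 ± 12.96 against 16.4 ± 1.93 CPM, and Sfrp5, a soluble Wnt binder with 102 reads over the WT and 3 over the IL13KO cocultures, all in library 3 (ratio 29.9, exact 95% counting interval 9.93 to 147). Falls included secreted modulators. Sfrp1, another soluble Wnt binder, stood at 357, 241 and 334 CPM against 923, 949 and 751 (log2 fold change -1.49 ± 0.14, adjusted p = 1.92e-05), and Dkk3 was at 124 ± 13.1 against 392 ± 61.9 CPM (-1.66 ± 0.13). Nkd2, a feedback inhibitor, was at 14 ± 0.879 against 61.5 ± 9.43 CPM (-2.14 ± 0.13). The frizzled receptor genes Fzd1 and Fzd4 were 1.66-fold and 1.75-fold lower. Axin2, a general readout of the canonical pathway, was not called (-0.23 ± 0.20).

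Growth factor genes of the stroma differed in both directions, with 6 higher and 15 lower among 31 tested of 35 listed (median -0.73). Gas6, the ligand of TAM receptor kinases, stood at 302, 236 and 232 CPM against 1019, 1196 and 1054 (log2 fold change -2.08 ± 0.12, adjusted p = 4.95e-07). Hgf, hepatocyte growth factor, stood at 20.7, 16.9 and 19.8 CPM against 60.5, 57.9 and 54.5 (log2 fold change -1.59 ± 0.11, adjusted p = 1.96e-06). Vegfd, a lymphatic growth factor, was at 187 ± 8.23 against 635 ± 128 CPM (-1.76 ± 0.13). Fibroblast growth factor genes were lower too, Fgf2 at 20.9 ± 2.38 against 65.1 ± 2.52 CPM and Fgf10 at 7.94 ± 1.25 against 23.8 ± 1.41 CPM. In the other direction, Igfbp5, a binding protein of insulin-like growth factors, stood at 53.2, 40.3 and 41.4 CPM against 3.403, 8.75 and 4.705 (log2 fold change 3.001 ± 0.27, adjusted p = 1.03e-05). Pdgfc was at 54.7 ± 3.55 against 21.4 ± 4.57 CPM (1.35 ± 0.15). Ntf3, a neurotrophin, was lower at 0.108 ± 0.144 against 3.296 ± 0.528 CPM. Its log2 fold change was -4.95 ± 0.54, or -4.32 without WT coculture 1 and -6.75 without 4. Of ERK feedback and ETS target genes 4 higher and 4 lower among 23 tested of 26 listed were counted, near the background. Myc was higher at 106 ± 9.72 against 56.5 ± 1.92 CPM (0.90 ± 0.09), and Dusp6, a phosphatase of ERK, was not called (-0.00 ± 0.19).

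Markers of the 2 fibroblast states named in mouse tissue atlases behaved differently. Among progenitor markers of the Pi16-positive state, 28 of 30 were tested, 13 were higher with WT ILC2s and 5 lower (median log2 fold change 0.36), with 3 lower without IL13KO coculture 3 and 3 without WT coculture 3. Pi16 (chromosome 17, 29317680 to 29330593) itself stood at 1065, 1569.9 and 1263 CPM with WT ILC2s against 1179, 1126 and 1327 with IL13KO ILC2s and was not called (log2 fold change 0.10 ± 0.13, adjusted p = 0.577), and fibroblasts alone held 135 to 199.8 CPM. The high level of Pi16 in coculture was thus present with either kind of ILC2. Cd34 (chromosome 1, 194938819 to 194961279), a sialomucin of progenitor cells, stood at 263, 242 and 216 CPM with WT ILC2s against 16.7, 22.1 and 20.1 with IL13KO ILC2s (log2 fold change 3.61 ± 0.12, adjusted p = 3.74e-08), with 6.63 to 14.7 CPM in fibroblasts alone. Cd55, a regulator of complement, stood at 46.01, 56.3 and 53.4 CPM against 17.2, 17.2 and 11.9 (log2 fold change 1.75 ± 0.15, adjusted p = 8.36e-06). Cd248, endosialin, stood at 934, 779.5 and 697 CPM against 326, 399 and 383 (log2 fold change 1.12 ± 0.12, adjusted p = 3.94e-05). Uchl1, a ubiquitin hydrolase, was at 20.7 ± 1.995 against 5.44 ± 1.39 CPM (1.92 ± 0.18). Not all progenitor markers went that way. Dpp4, a membrane peptidase, was lower at 1.84, 2.01 and 2.77 CPM against 9.36, 6.06 and 4.705 (log2 fold change -1.61 ± 0.28, adjusted p = 0.00109). Limch1, which encodes an actin-binding protein, was lower at 0.629, 0.411 and 0.381 CPM against 10.3, 10.98 and 8.22 (log2 fold change -4.34 ± 0.25, adjusted p = 5.88e-07). Ly6a, or Sca-1, was at 373 ± 37.8 against 510.3 ± 27.5 CPM (-0.45 ± 0.09).

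Among markers of the parenchymal state positive for Col15a1, 24 of 24 were tested, 1 was higher with WT ILC2s and 19 lower (median log2 fold change -0.90). Besides Col15a1, Lum, Podn and Smoc2 above, Apoe, apolipoprotein E, stood at 33.6, 63.5 and 63.4 CPM with WT ILC2s against 521, 489 and 394 with IL13KO ILC2s (log2 fold change -3.13 ± 0.22, adjusted p = 1.86e-06). Lpl, lipoprotein lipase, stood at 195, 188 and 239.8 CPM against 517, 566 and 395 (log2 fold change -1.25 ± 0.14, adjusted p = 5.09e-05). Cygb, cytoglobin, was at 312 ± 21.96 against 598 ± 47.7 CPM (-0.94 ± 0.09). The single rise was Hsd11b1, which regenerates active glucocorticoid, at 218 ± 36.9 against 165 ± 10.2 CPM (log2 fold change 0.40 ± 0.12, adjusted p = 0.0216). That call ended without WT coculture 3 or 4 or IL13KO coculture 2 or 3 (adjusted p = 0.07, 0.0688, 0.103 and 0.0619). The sort antigens were closer in level. Pdgfra stood at 748, 559 and 601 CPM against 821, 774 and 652, and Pdpn at 294, 378 and 316 CPM against 303, 272 and 283. Neither was called (-0.24 ± 0.12, adjusted p = 0.16, and 0.20 ± 0.10, adjusted p = 0.146), though both were without WT coculture 1 (-0.37, adjusted p = 0.0195, and 0.28, adjusted p = 0.0446). Pdgfrb, the receptor for PDGF-B, was lower at 98.8, 66.2 and 43.3 CPM with WT ILC2s against 208, 248 and 219 with IL13KO ILC2s (log2 fold change -1.69 ± 0.22, adjusted p = 1.83e-04).

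Adipogenic genes were mostly lower with WT ILC2s, with 3 higher and 13 lower among 22 tested of 25 listed (median -0.61). Pparg, the master regulator of adipocytes, stood at 29.2, 22.1 and 29.2 CPM against 49.6, 59.7 and 60.6 (log2 fold change -1.08 ± 0.13, adjusted p = 1.09e-04). Cebpa, its partner, stood at 2.34, 2.06 and 2.55 CPM against 9.92, 11.8 and 12.9 (log2 fold change -2.32 ± 0.18, adjusted p = 4.20e-06). Fabp4, a fatty-acid binding protein, was at 9.28 ± 1.99 against 30.1 ± 3.604 CPM (-1.703 ± 0.17). Scd2, a stearoyl-CoA desaturase, was higher at 676, 525 and 484 CPM with WT ILC2s against 204, 254 and 262 with IL13KO ILC2s (log2 fold change 1.23 ± 0.14, adjusted p = 5.05e-05), while its relative Scd1 was not called.

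Contractile genes did not follow the rise of Myocd. Of that list, 24 of 24 were tested, 2 were higher with WT ILC2s and 8 lower (median log2 fold change -0.27). Acta2, smooth-muscle actin, stood at 722, 665 and 924 CPM with WT ILC2s against 889, 716 and 1024 with IL13KO ILC2s and was not called (log2 fold change -0.19 ± 0.15, adjusted p = 0.348). Tagln and Actg2 were not called either. Cnn1, calponin, was lower at 104, 110.0 and 133 CPM against 253, 159 and 279 (log2 fold change -0.99 ± 0.18, adjusted p = 0.00134), and Myh11, the smooth-muscle myosin, at 0.888 ± 0.356 against 3.92 ± 0.8104 CPM (-2.16 ± 0.31). Mylk, myosin light chain kinase, was higher at 956 ± 50.5 against 676 ± 48.9 CPM (0.50 ± 0.09). Of YAP and TEAD targets 2 higher and 9 lower among 17 tested of 18 listed were counted (5 lower without IL13KO coculture 2 and 5 without WT coculture 3, and 4 with all 10 libraries in the fit). Nt5e, described above, was among the rises. F3, the gene of tissue factor, was lower at 118, 116 and 125 CPM against 376, 311 and 261 (log2 fold change -1.402 ± 0.12, adjusted p = 8.42e-06), and Ccn1 was not called.

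Complement genes were lower in the main, with 3 higher and 12 lower among 15 tested of 22 listed (median -1.27). Serping1, the inhibitor of C1, stood at 545, 786 and 885 CPM against 2315, 1860.5 and 1404 (log2 fold change -1.33 ± 0.20, adjusted p = 3.60e-04). C4b, a form of component C4, was at 10.6 ± 2.89 against 57.5 ± 9.15 CPM (-2.44 ± 0.19). C4b and C4a, and C1ra and C1rb, are near-identical copies whose reads could be split. The rises were the regulator Cd55 above, Masp1 and C3. Masp1, a protease of the lectin pathway, stood at 76.5, 69.6 and 77.6 CPM against 13.1, 17.5 and 18.6 (log2 fold change 2.18 ± 0.13, adjusted p = 7.43e-07). C3, the central component, stood at 265, 568 and 599 CPM against 291, 281 and 219 (log2 fold change 0.86 ± 0.24, adjusted p = 0.0178). Groups overlapped for C3, and its call ended without WT coculture 3 (adjusted p = 0.0843), WT coculture 4 (0.0551) or IL13KO coculture 3 (0.0691) and with all 10 libraries in the fit (0.0669).

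Interferon-induced genes had 3 higher and 9 lower among 27 tested of 36 listed (median -0.41, or -0.155 without WT coculture 3), and 0 higher with all 10 libraries in the fit. Gbp2, a guanylate-binding GTPase, was lower and stood at 15.7, 14.3 and 15.7 CPM against 52.8, 40.99 and 35.9 (log2 fold change -1.504 ± 0.15, adjusted p = 1.92e-05). Iigp1, another GTPase, was at 9.07 ± 1.02 against 25.3 ± 5.56 CPM (-1.48 ± 0.17), and Irgm1 at 9.89 ± 1.98 against 19.7 ± 0.912 CPM (-0.99 ± 0.16). Ifit1, Isg15 and Irf7 were not called. Antigen presentation genes had 1 higher and 4 lower among 17 tested of 21 listed, with 3 higher without WT coculture 1. The lower count was near the background of 18.4%, so this list does not stand out. H2-D1, a class I heavy chain, was at 174 ± 17.7 against 284 ± 24.2 CPM (-0.71 ± 0.10). Cd74, the invariant chain of class II molecules, was lower at 3.44 ± 0.5099 against 11.7 ± 3.06 CPM (-1.77 ± 0.22).

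Lipid mediator genes changed in both directions, with 10 higher and 8 lower among 28 tested of 34 listed (median 0.13). Receptors of the same ligand differed. Ptger2, which couples prostaglandin E2 to cyclic AMP, stood at 11.2, 9.31 and 12.7 CPM against 0.227, 0.686 and 1.36 (log2 fold change 3.86 ± 0.36, adjusted p = 1.45e-05, or 4.57 without IL13KO coculture 3). Ptger4, which signals the same way, stood at 135, 94.8 and 99.2 CPM against 52.01, 66.3 and 59.5 (log2 fold change 0.89 ± 0.14, adjusted p = 6.15e-04). The other receptors of that prostaglandin, Ptger1 and Ptger3, were lower, at 10.1 ± 1.12 against 21.8 ± 1.99 CPM and 2.83 ± 0.707 against 9.38 ± 1.05 CPM. S1pr3, a receptor for sphingosine 1-phosphate, stood at 1633, 1272 and 1268 CPM with WT ILC2s against 437, 511 and 585 with IL13KO ILC2s (log2 fold change 1.44 ± 0.13, adjusted p = 1.27e-05). Lpar1, the receptor for lysophosphatidic acid, stood at 46.5, 38.1 and 36.3 CPM against 271, 239 and 202 (log2 fold change -2.56 ± 0.13, adjusted p = 2.29e-07). Enpp2, autotaxin, which makes that ligand, stood at 43.3, 32.8 and 28.5 CPM against 109.8, 96.97 and 91.4 (log2 fold change -1.51 ± 0.14, adjusted p = 1.68e-05). Receptor and enzyme of lysophosphatidic acid were thus both lower with WT ILC2s. Ptgis, prostacyclin synthase, was higher at 210.0, 192 and 182 CPM with WT ILC2s against 91.3, 93.8 and 95.4 with IL13KO ILC2s (log2 fold change 1.06 ± 0.08, adjusted p = 4.92e-06).

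Transcription factors of fibroblast identity had 5 higher and 15 lower among 36 tested of 41 listed (median -0.09). Hlf, a PAR bZIP factor also found in ILC2s and stem cells, stood at 40.6, 36.2 and 33.3 CPM with WT ILC2s against 3.52, 3.14 and 3.97 with IL13KO ILC2s (log2 fold change 3.37 ± 0.15, adjusted p = 1.19e-07). Its relatives Dbp and Tef, outputs of the circadian clock, were lower. Dbp stood at 10.9, 9.62 and 8.15 CPM against 30.7, 30.2 and 28.5 (log2 fold change -1.64 ± 0.13, adjusted p = 5.26e-06), and Tef was at 11.9 ± 1.62 against 25.6 ± 5.35 CPM (-1.099 ± 0.17). Tcf21, a factor of mesenchymal progenitors, stood at 2.61, 3.86 and 3.32 CPM against 15.8, 17.5 and 13.8 (log2 fold change -2.27 ± 0.18, adjusted p = 4.57e-06). Snai1, a repressor of epithelial genes, was at 53.5 ± 10.8 against 123 ± 1.11 CPM (-1.19 ± 0.13). Twist1, Twist2, Prrx1 and Osr1 were not called. NRF2 and glutathione genes had 2 higher and 6 lower among 18 tested of 21 listed. Leaving out IL13KO coculture 1 or 2 or WT coculture 1 left 1 higher, and the lower count was 3 with all 10 libraries in the fit. Gstm1, a glutathione transferase, was higher at 254 ± 36.8 against 120.0 ± 4.51 CPM (1.08 ± 0.11), and Nqo1 was not called. The lists share members, such as Alox15, Cd55, Lum and Cebpb, so their counts are not independent of each other.

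**Figure D5:**
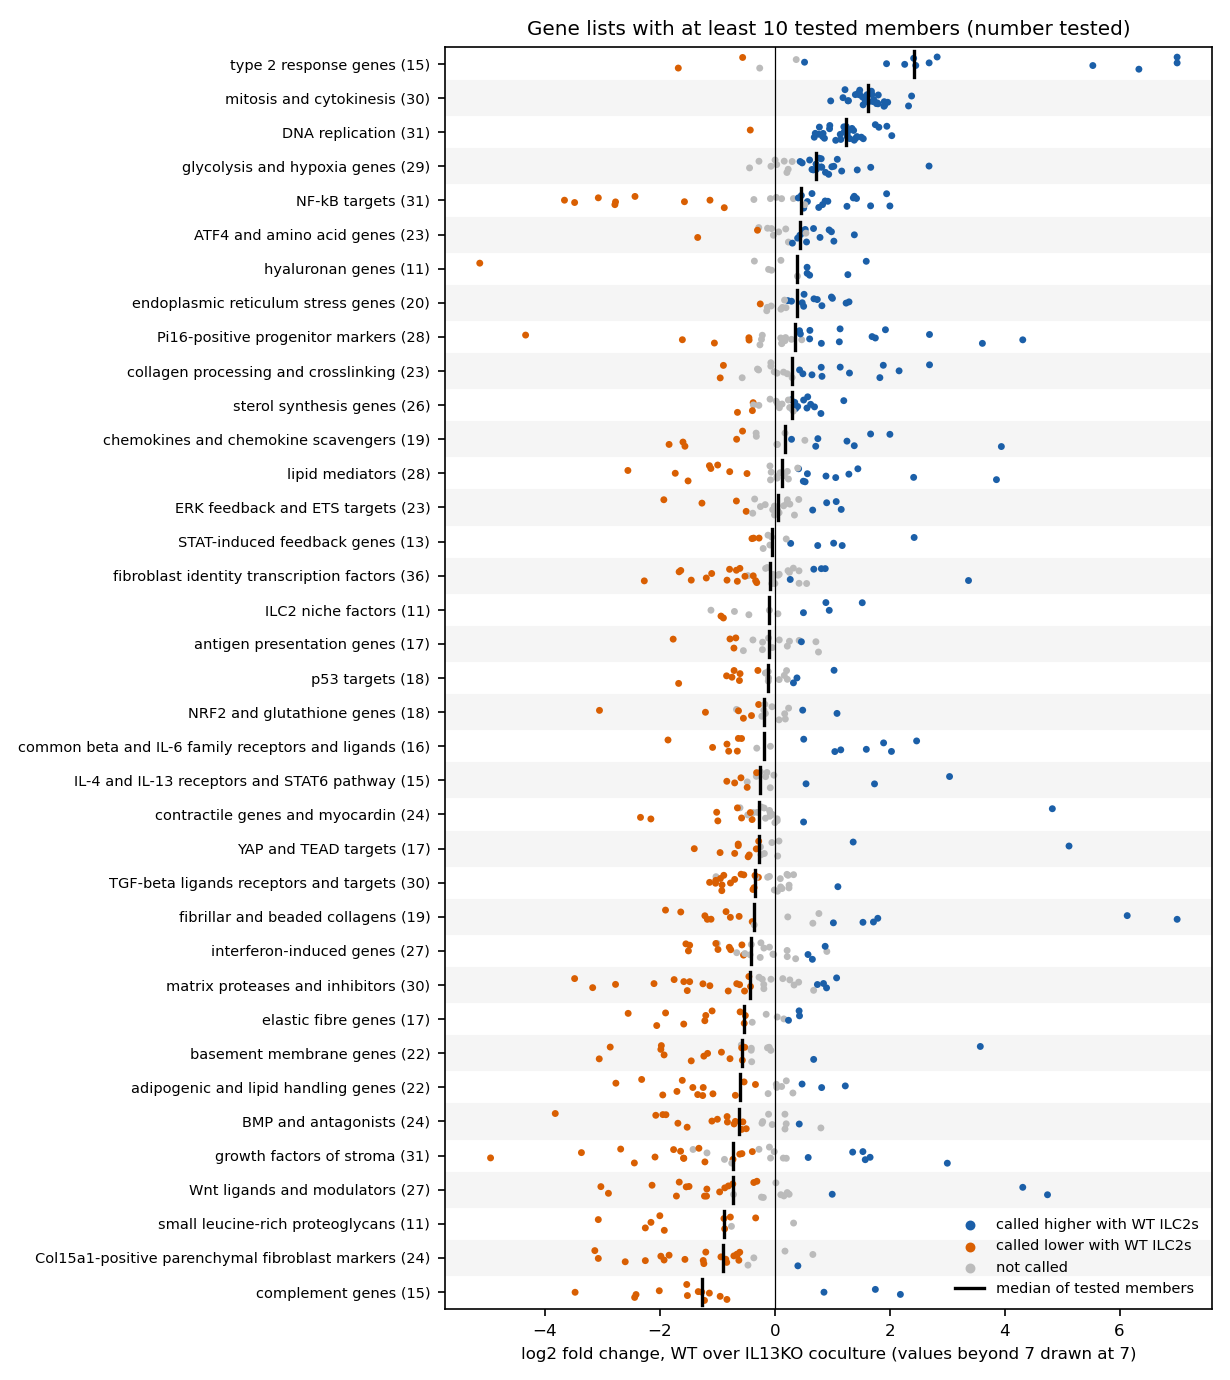
Log2 fold change of WT over IL13KO coculture for every tested member of the lists with at least 10 tested members, ordered by median (black bars). Points are genes, blue if called higher with WT ILC2s, orange if called lower and grey if not called; values beyond 7 are drawn at 7. Type 2 response (median 2.42), mitosis (1.62) and DNA replication (1.24) lie at the top and complement genes at the bottom.

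Markers of other cell types were read for the same libraries. The leukocyte list summed to 110.3 to 144 CPM with WT, 28.9 to 37.1 with IL13KO ILC2s and 13.9 to 21.5 in fibroblasts alone, with 2 higher and 1 lower among 5 tested of 15 listed (1 higher without WT coculture 3). With WT ILC2s most of that sum was Cd53, a tetraspanin of white blood cells, which stood at 92.5, 107 and 113 CPM with WT ILC2s against 12.6, 19.1 and 17.5 with IL13KO ILC2s (log2 fold change 2.66 ± 0.15, adjusted p = 4.27e-07). The defining gene Ptprc stayed at no more than 9 reads in any library, as given above. The ILC2 list, which holds genes that fibroblasts also express such as Id2 and Thy1, summed to 644 to 711 CPM with WT and 566 to 611 with IL13KO ILC2s, both below the 714 to 793 CPM of fibroblasts alone, and had 5 higher and 2 lower among 8 tested of 15 listed. Cd53 was 1 of 2 leukocyte markers called higher, against 1 called lower, so it does not stand for the list. Reads of Il13, Il5, Il9 and Csf2 were higher with WT ILC2s too, as were type 2, cell-cycle and some chemokine genes. Reads of Il4 were not. The part of leukocyte or ILC2 RNA in those results was not tested.

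Macrophage markers had 0 higher and 1 lower among 2 tested of 7 listed and summed to 14.96 to 17.7 CPM with WT and 35.3 to 37.3 with IL13KO ILC2s. The single member called lower was Lyz2, lysozyme, at 2.29, 2.83 and 3.48 CPM with WT ILC2s against 24.1, 24.9 and 22.4 with IL13KO ILC2s (log2 fold change -3.06 ± 0.16, adjusted p = 3.49e-07). Lyz2 was most of the sum with IL13KO ILC2s but a smaller part of it with WT ILC2s. Csf1r was not called. Mural and stellate cell markers had 0 higher and 5 lower among 6 tested of 7 listed and summed to 34.01 to 34.8 and 103 to 138 CPM, with 87.9 to 99.05 in fibroblasts alone. Rgs5, a pericyte marker, stood at 10.02, 8.85 and 6.85 CPM against 69.5, 49.1 and 54.8 (log2 fold change -2.75 ± 0.17, adjusted p = 8.46e-07). Kcnj8, a potassium channel gene of the same cells, was at 0.928 ± 0.332 against 8.11 ± 1.28 CPM (-3.13 ± 0.26). Fewer mural cells and less of their RNA per cell cannot be told apart, and the part of either in the lower matrix, contractile and Pdgfrb levels was not tested.

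Mesothelial markers set single libraries apart. Upk3b stood at 0.1797, 5.66 and 0 CPM with WT ILC2s against 28.3, 73.8 and 2.32 with IL13KO ILC2s (log2 fold change -4.18 ± 1.14, adjusted p = 0.0147), so that WT coculture 3 held nearly all of the WT reads and the groups overlapped. Its call ended without IL13KO coculture 2 (adjusted p = 0.0738), by DESeq2 (0.128), by limma-voom (0.117) and with all 10 libraries in the fit (0.0926), and its log2 fold change was -8.37 without WT coculture 3. The mesothelial list had 2 higher and 1 lower among 5 tested of 6 listed, so Upk3b does not stand for the list. Its members summed to 132.3 to 152.5 CPM with WT and 107 to 229.2 with IL13KO ILC2s, ranges that overlap. The list had 3 lower without WT coculture 3. Its rises were lost without WT coculture 3 or IL13KO coculture 2 or 3. Acinar markers had 0 higher and 1 lower among 2 tested of 5 listed. Ductal markers had 1 higher and 0 lower among 3 tested of 6 listed, a call lost by DESeq2 and limma-voom. Of the T and B cell list Trac alone was in the count table, at 19.99 ± 2.32 against 9.27 ± 1.65 CPM, and of the endothelial list Tek alone was tested and not called. No value is given for islet and Schwann cell markers. The fibroblast list itself had 1 higher and 6 lower among 9 tested of 9 listed, in which the falls were Lum, Dcn, Pdgfrb and the fibrillar collagens.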

How the data were processed

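RNA of sorted fibroblasts was sequenced as paired reads of 50 nt from a low-input kit, per the labels. The deposited table gives raw counts per gene as whole numbers. The submitters' processing notes name STAR 2.7.7a, Salmon 1.6.0, Trimmomatic 0.39, FastQC 0.11.9, DESeq2 and Picard, with GRCm38.p6. The tool that counted, its annotation and its strand setting are not given in the sources used here. A second table, a rescaled copy of the counts, was not used here. A column name gives the culture but not which sample.

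The 6 coculture libraries were fitted alone in edgeR 4.0.16 (R 4.3.3; filterByExpr, TMM, quasi-likelihood test), with Benjamini-Hochberg adjustment over all 15898 tested genes. Monoculture CPM use TMM factors of all 10 libraries. Positions came from GENCODE on GRCm38. Overlapping genes share reads: 21 named genes have 11.5 to 71.0% of their exon bases in another gene, most of all Ptger1, Tagln, Twist2, Il2rg, Kif20a and Il5 (27.1%). Named were the 12 largest changes each way (called, no overlap between groups, at least 10 CPM, no predicted genes), 20 genes of the design and members of 49 lists. Comparison, lists and named genes were chosen with earlier results of these data known; rank within a list was by adjusted p, and some members named here, such as those not called, were picked freely. Simulated data with 200 changed genes gave back 89 of 100 changes of 2-fold and 98 of 99 of 4-fold, with 7 false calls among 15691 genes. Their spread followed the fitted trend on level, without added spread by gene or library. Far fewer genes were changed than were called here. The simulation thus checks the code and does not measure power or false calls in these data. Alternatives were other scalings, DESeq2 1.42.0, limma-voom (limma 3.58.1), other filters, all 10 libraries, a replicate block, GC and length correction (loess), equal depth, a fold test and leaving out each library.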

Additional observations from a re-analysis of the deposited data

Results flagged for a closer look

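Among 10 genes looked at in the 4 libraries of fibroblasts alone, 2 had 1 library far above the other 3. For Col1a1 the libraries held 819, 832, 954 and 1687 CPM, and the gap between the highest and its nearest neighbour was 0.845 of the whole range. For Dcn they held 2153, 2178, 2267 and 3563 CPM, with a gap of 0.919 of the range. Both exceed Dixon's 95% critical value for 4 samples, which chance exceeds in about 1 in 20 groups. The tests as reported did not use these libraries, but the alternative with all 10 libraries in the fit did, and there the call of Col1a1 ended (adjusted p = 0.0588).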

How the results depend on the processing

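Against 5806 genes called (2873 higher and 2933 lower with WT ILC2s), the count fell to 3810 (1901 higher, 1909 lower) with all 10 libraries in the fit and to 1571 (764 and 807) when the test asked for a fold change over 1.5. Leaving out 1 library gave 3999 to 6380 calls, 1902 to 3112 higher and 2097 to 3268 lower, fewest without IL13KO coculture 2 and most without WT coculture 1. The cause was not tested. Other size factors, DESeq2, limma-voom, other filters, removal of the trend on GC content and length, and equal depth gave 2695 to 3044 higher and 2815 to 3085 lower. Of 217 named genes called, 182 passed the fold test. Under every alternative but that test 207 kept their call and direction, and over 4110 pairs of a named gene and an alternative, 29 lost a call, 13 gained one and 0 called values changed sign. Depth limits the lowest genes, where 3 reads are 0.135 to 0.172 CPM.

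With the number in the column name as a replicate block, 3240 genes were called (1581 higher, 1659 lower). The groups share the numbers 1 and 3 alone, and same-numbered libraries did not deviate together (correlations of their deviations -0.097 and -0.087), so the numbers were not taken to pair the samples.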
